A study of Mus musculus with 22 samples.

Results

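The binding of BRG1 was compared between mouse dermal fibroblasts without lamina-associated polypeptide 2 alpha (Lap2alpha knockout) and wildtype fibroblasts. The comparison used the 4 libraries precipitated with a BRG1 antibody, out of 22 samples in the series, of which 18 have a list of enriched regions used here. They were chosen by antibody and genotype alone: 1 wildtype and 1 knockout library from chromatin sonicated for 16 cycles, and 1 of each from chromatin sonicated for 20 cycles. The other 14 lists of the series come from the same 2 genotypes and give the positions of CHD4, of lamin A/C (2 antibodies, 3A6 and E1) and, in wildtype alone, of Lap2alpha. Cells of both genotypes were grown in DMEM with fetal calf serum and crosslinked with both DSG and formaldehyde before chromatin immunoprecipitation. The labels name the genotypes only as WT and Lap2alpha KO, and say neither how the knockout was made nor whether the libraries come from separate clones, animals or cultures.

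BRG1, encoded by Smarca4, is an ATPase that drives the SWI/SNF (BAF) chromatin remodelling complex, which slides and ejects nucleosomes at enhancers and promoters. In fibroblasts SWI/SNF is known to work with AP-1 factors at enhancers. Lap2alpha, one product of Tmpo, is a soluble protein of the nuclear interior that binds A-type lamins, and CHD4 is the remodelling ATPase of the NuRD complex. Lamins and the chromatin at the nuclear periphery mostly mark gene-poor, late-replicating DNA in which long, silent neuronal genes are common.

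With 1 library per genotype and sonication length, no difference below has a replicate check and none was tested. A difference is described as shared when it had the same direction in the comparison at 16 cycles and in the one at 20 cycles, and pairs of values are given in that order. The lists hold intervals with no score or read count, so that sequencing depth is unknown. A region in one list and not in another means listed or not listed, and not a measured absence of BRG1.

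The wildtype library at 16 cycles stood apart from the other 3 before any comparison. It held 72225 regions over 43.2 Mb, and 36.2% of 21887 protein-coding genes had a region within 1 kb of either end. The wildtype library at 20 cycles held 205999 regions over 98.4 Mb (63.0% of genes), the knockout library at 16 cycles 107321 regions over 73.2 Mb (54.4%) and the knockout library at 20 cycles 175641 regions over 84.8 Mb (58.9%). A rule that asks for absence from both wildtype lists therefore leans on the longer wildtype list, that of 20 cycles. Of 10 fibroblast marker genes, 8 and 10 had a BRG1 region at a gene end in wildtype and 9 and 9 in the knockout, whereas of 20 markers of keratinocytes, endothelium, leukocytes, melanocytes and muscle 1 and 9 had one in wildtype and 5 and 6 in the knockout. Tmpo itself carried 5 and 11 BRG1 regions in wildtype and 9 and 9 in the knockout, and a list of intervals cannot show whether the gene is deleted.

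The size of the BRG1 lists moved in opposite directions at the 2 sonication lengths. The knockout list was 1.49 times as long as the wildtype list at 16 cycles and 0.853 times as long at 20 cycles, and the length of genome covered changed 1.70-fold and 0.862-fold. At 20 cycles the direction depends on how overlapping intervals are treated: the knockout list alone holds overlapping intervals (59615 of them), and without merging it was 1.14 times as long as the wildtype list. Of wildtype regions, 76.2% (95% Wilson interval 75.8 to 76.5) overlapped a knockout region at 16 cycles and 40.1% (39.8 to 40.3) at 20 cycles. For comparison, 81.2% of the wildtype regions at 16 cycles overlapped one at 20 cycles, and 68.5% of the knockout regions did. These intervals cover counting error only.

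Joining the 4 lists gave 317714 separate sites. Of these, 8789 were in both knockout lists and in neither wildtype list (2.77%), and 5535 were in both wildtype lists and in neither knockout list (1.74%); they are called knockout-only and wildtype-only sites. Another 43787 sites were in all 4 lists, 16619 were in all but the wildtype list at 16 cycles, and 204222 (64.3%) were in 1 list. The excess of knockout-only over wildtype-only sites, 1.59-fold, turned when equal numbers of the widest regions were taken from each list (5269 knockout-only and 6869 wildtype-only). A further 8766 sites were listed only in the knockout at 16 cycles and only in wildtype at 20 cycles, and 1476 the other way round. Leaving out a list loosens the rule: without the wildtype list at 16 cycles there were 11534 knockout-only and 108350 wildtype-only sites, without that at 20 cycles 25527 and 12680, without the knockout list at 16 cycles 87384 and 10601, and without that at 20 cycles 26592 and 8320.

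Sites that differed lay away from gene ends more often than shared sites, and wildtype-only sites also lay in gene-poor DNA. Within 1 kb of a gene end were 4.80% of knockout-only sites and 2.67% of wildtype-only sites, against 17.0% of the sites in all 4 lists. Sites in a single list had the same trait, with 2.69% to 4.09% at gene ends and a median region of 244 to 280 bp, so that it is not particular to sites that separate the genotypes. Outside protein-coding genes were 50.4% of knockout-only, 59.5% of wildtype-only and 44.7% of shared sites. The 1 Mb stretch around a site held a median of 7 genes for knockout-only, 4 for wildtype-only and 8 for shared sites, and 5 for sites in the wildtype list at 16 cycles alone. Sites that differed were also narrower: the median region measured 432 and 378 bp at knockout-only sites and 324 and 394 bp at wildtype-only sites, but 718 and 884 bp (wildtype) and 986 and 826 bp (knockout) at sites in all 4 lists.

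Sequence is shown for promoters that changed class, since they are the places where a differing region can be set against a gene's own start. The 6 promoters were chosen after their values were seen, for a wide region over the window in both libraries of one genotype and none in either library of the other. Fam13c and Col11a1, which encodes a fibrillar collagen chain, had knockout regions only (1596 and 1609 bp, and 1234 and 1014 bp). Mreg (melanoregulin, 1032 and 1374 bp), Cavin4 (a muscle caveola protein, 742 and 753 bp), Cdh18 (a classical cadherin of neurons, 748 and 1372 bp) and Cyp3a13 (a cytochrome P450, 712 and 862 bp) had wildtype regions only. Fam13c and Cdh18 have further starts, with regions in both genotypes. The 250 bases before 1 annotated start of each gene, from RefSeq (GRCm38.p6), lie at chr10:70440418-70440667 (plus strand) for Fam13c, chr3:114030290-114030539 (plus) for Col11a1, chr1:72212308-72212557 (minus) for Mreg, chr4:48663264-48663513 (plus) for Cavin4, chr15:23036213-23036462 (plus) for Cdh18 and chr5:137921620-137921869 (minus) for Cyp3a13. Capitals mark matches on either strand to the AP-1 motif TGANTCA, the TEAD motif GGAATG or the GC box GGGCGG.
Fam13c: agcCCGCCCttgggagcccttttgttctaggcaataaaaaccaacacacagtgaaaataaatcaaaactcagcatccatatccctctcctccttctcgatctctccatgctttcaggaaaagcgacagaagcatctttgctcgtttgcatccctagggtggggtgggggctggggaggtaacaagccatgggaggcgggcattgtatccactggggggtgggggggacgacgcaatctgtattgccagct
Col11a1: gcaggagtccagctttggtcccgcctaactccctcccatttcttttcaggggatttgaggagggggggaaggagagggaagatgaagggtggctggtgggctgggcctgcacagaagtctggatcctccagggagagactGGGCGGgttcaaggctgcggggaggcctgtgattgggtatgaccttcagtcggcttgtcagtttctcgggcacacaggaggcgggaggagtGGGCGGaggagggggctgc
Mreg: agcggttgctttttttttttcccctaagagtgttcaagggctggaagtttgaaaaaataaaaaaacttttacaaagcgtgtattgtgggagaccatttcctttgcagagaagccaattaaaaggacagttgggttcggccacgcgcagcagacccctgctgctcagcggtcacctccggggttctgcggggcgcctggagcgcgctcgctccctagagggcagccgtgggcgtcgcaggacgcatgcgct
Cavin4: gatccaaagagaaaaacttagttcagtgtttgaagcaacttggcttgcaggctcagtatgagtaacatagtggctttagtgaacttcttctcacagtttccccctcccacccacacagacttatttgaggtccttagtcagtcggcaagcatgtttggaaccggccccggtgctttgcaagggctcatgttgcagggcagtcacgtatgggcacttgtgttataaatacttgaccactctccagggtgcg
Cdh18: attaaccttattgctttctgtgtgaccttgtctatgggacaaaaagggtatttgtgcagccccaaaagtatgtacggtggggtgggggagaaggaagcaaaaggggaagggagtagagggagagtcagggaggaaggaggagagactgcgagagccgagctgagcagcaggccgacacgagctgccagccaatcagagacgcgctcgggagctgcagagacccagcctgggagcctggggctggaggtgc
Cyp3a13: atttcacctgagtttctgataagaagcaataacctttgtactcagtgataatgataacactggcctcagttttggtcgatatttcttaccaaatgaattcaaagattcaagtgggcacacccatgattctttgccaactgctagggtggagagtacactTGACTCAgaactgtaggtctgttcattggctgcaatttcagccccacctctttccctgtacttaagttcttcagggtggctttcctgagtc
Fam13c had 1 GC box match and Col11a1 had 2, Cyp3a13 had 1 AP-1 match, and the windows of Mreg, Cavin4 and Cdh18 held none of these motifs.

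Over all 21263 RefSeq promoter windows (250 bases before to 50 after a start), 324 were knockout-only (1.52%) and 70 were wildtype-only (0.329%). Knockout-only windows resembled promoters bound in all 4 lists in base composition: their median GC content was 60.7%, against 62.0% for 3976 windows in all 4 lists and 50.3% for 10108 windows in none. Wildtype-only windows lay between, at 53.3%. A GC box was found in 62.3% of knockout-only windows (95% Wilson interval 56.9 to 67.5), 47.1% of wildtype-only windows (35.9 to 58.7), 65.3% of windows in all 4 lists and 46.2% of all windows. The AP-1 motif was found in 5.86% (3.79 to 8.98), 12.9% (6.91 to 22.7), 6.71% and 6.99%, and the TEAD motif in 12.3%, 20.0%, 12.1% and 13.6%, in the same order. The intervals of the small wildtype-only class were wide and overlapped the share over all windows for each of these 3 motifs.

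BRG1 was also compared over long stretches of the genome, and stretches were counted only where the order of the genotypes was the same at both sonication lengths. Whether the regions that differed cluster was not tested. Each 1 Mb bin was described by its share of all covered bases in a library, which takes out the difference in list length. Of 1964 bins with a mean of at least 20 regions, 87 had a share at least 1.5-fold higher in the knockout at both lengths (4.43%) and 146 a share at least 1.5-fold lower (7.43%). Without a threshold, 662 bins were higher at both lengths, 620 were lower at both, and 682 went opposite ways. Bins that differed were gene-poor: the median number of genes was 3 in higher bins and 2 in lower bins, against 7 over the bins compared. By count, higher bins were most numerous on chromosomes 14 (18 bins), 3 (13), 6 (10) and 18 (9), and lower bins on chromosomes 1 (19), 5 (16), 3 (14) and 4 (12). Chromosome 19, a short one, held 8 lower bins. These counts grow with chromosome length and were not set against the number of bins compared on each chromosome.

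**Figure D1:**
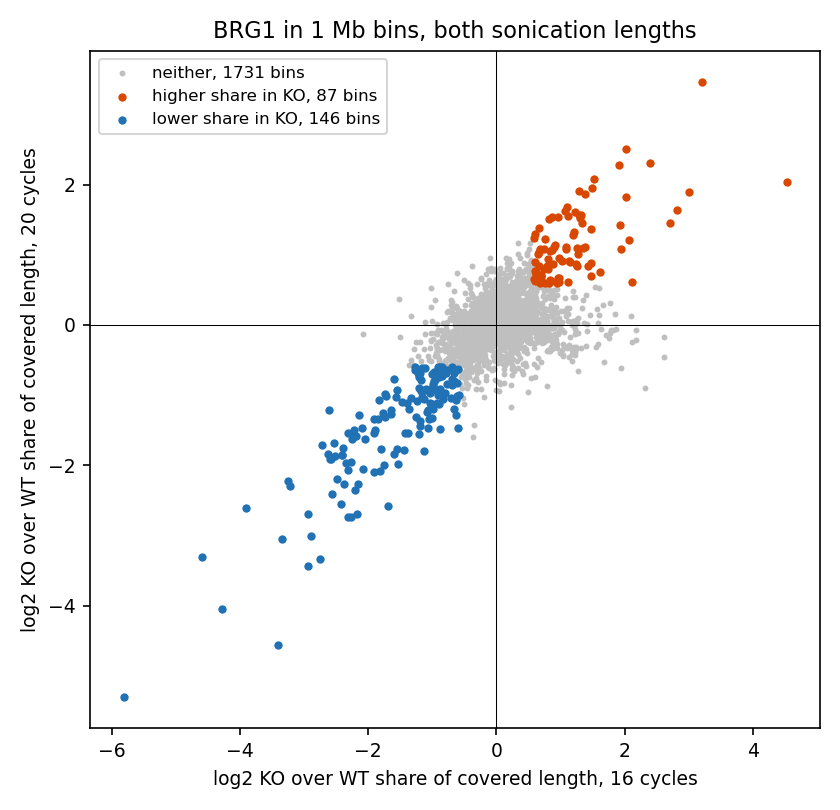
Each point is a 1 Mb bin, with the log2 ratio of its share of covered bases in the knockout to that in wildtype at 16 cycles (x axis) and at 20 cycles (y axis); colours mark the 87 bins higher and the 146 bins lower in the knockout by at least 1.5-fold at both lengths. By this rule both groups lie along the diagonal, away from the origin. A further point, 1 lower bin, is not drawn because the knockout list at 16 cycles has no region there.

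By the smaller of its folds, the bin that gained most was chr14:115000001-116000000 (GRCm38), overlapping Gpc5, the gene of glypican 5, a heparan sulfate proteoglycan of the cell surface. It held 3 and 8 BRG1 regions in wildtype and 28 and 47 in the knockout, a share 9.20-fold and 11.1-fold higher. Next came chr14:100000001-101000000 with Klf12, a Krüppel-like transcriptional repressor, at 7 and 18 regions in wildtype and 36 and 65 in the knockout. The bin chr8:102000001-103000000, which holds Cdh11, the cadherin typical of mesenchymal cells, went from 2 and 19 regions to 16 and 47. In that bin the lamin A/C lists moved the other way: antibody 3A6 gave 307 and 413 regions in wildtype and 55 and 168 in the knockout, and antibody E1 gave 239 and 405 and then 139 and 259.

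Among the bins that lost most, chr16:80000001-81000000 holds no protein-coding gene and went from 32 and 110 BRG1 regions in wildtype to 0 and 3 in the knockout. In the same bin CHD4 regions went from 15 and 29 to 0 and 0, whereas lamin A/C regions went from 4 and 1 to 60 and 107 with antibody 3A6 and from 0 and 0 to 67 and 112 with antibody E1. Bin chr1:12000001-13000000, which holds Sulf1, an extracellular sulfatase that trims heparan sulfate, went from 37 and 127 BRG1 regions to 8 and 5. Bin chr1:14000001-15000000, with Eya1, a transcriptional coactivator of organ development, went from 47 and 122 to 13 and 12. Bin chr16:67000001-68000000, at the synaptic adhesion gene Cadm2, went from 40 and 125 to 9 and 15.

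Single genes were ranked by their number of differing sites, a count that can grow with gene length. The BRG1 region counts given for them come from the same lists as the rank. The 20 genes named by it are 332 to 1998 kb long, beside a median of 25.8 kb over genes of at least 5 kb. Negr1 (chr3:156561790-157316464), a neuronal adhesion protein of the immunoglobulin superfamily, held the most knockout-only sites, 21, with no wildtype-only site. It carried 13 and 35 BRG1 regions in wildtype and 53 and 94 in the knockout. Gpc5 (chr14:115092201-116525192) held 17 knockout-only sites and 1 wildtype-only site, with 3 and 8 regions in wildtype and 33 and 50 in the knockout. Its neighbour Gpc6 (chr14:116924920-117979529), another glypican, went from 17 and 28 regions to 60 and 80. Ror1 (chr4:100095791-100444806), a receptor of the Wnt5a pathway, went from 4 and 9 to 31 and 49 with 13 knockout-only sites and 1 wildtype-only site.

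Nuclear factor I A, encoded by Nfia (chr4:97578066-98118876), had 21 and 49 regions in wildtype and 62 and 94 in the knockout. Dpyd (chr3:118562109-119432924), which starts the breakdown of pyrimidines, had 0 and 13 in wildtype and 28 and 62 in the knockout. Setbp1 (chr18:78750378-79110444) went from 9 and 24 to 33 and 43 and Aff3 (chr1:38175393-38630178) from 7 and 29 to 31 and 35. In these 8 genes both knockout libraries were above both wildtype libraries, an order that the ranking by sites of the same lists favours. How many of all genes have this order was not counted. In Auts2 (chr5:131437333-132543220; 25 and 100, then 66 and 103) and Prkg1 (chr19:30564487-31765268; 26 and 74, then 35 and 49) the wildtype library at 20 cycles had more regions than at least 1 knockout library, and Prkg1 held 4 wildtype-only sites beside its 11 knockout-only sites.

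The genes with the most wildtype-only sites were led by Cadm2. This gene (chr16:66655416-67620917) held 22 wildtype-only sites and no knockout-only site, with 44 and 118 BRG1 regions in wildtype and 8 and 20 in the knockout. Cdh18 (chr15:22548898-23477491) held 19 and went from 54 and 128 to 17 and 29. Tenm3 (chr8:48225665-49522824), a teneurin, went from 52 and 127 to 18 and 37, and Lingo2 (chr4:35696778-36951744), a leucine-rich repeat membrane protein, from 39 and 114 to 15 and 20. Adgrl3 (chr5:81019085-81827825), a latrophilin adhesion receptor, went from 57 and 108 to 28 and 42. Cadm1 (chr9:47530170-47862280) went from 27 and 63 to 8 and 15 and Grik2 (chr10:49093680-49790161), a kainate receptor subunit, from 26 and 58 to 4 and 15. Fhit (chr14:9550092-11162061), a long fragile-site gene, went from 51 and 135 to 19 and 41. In these 8 genes both knockout libraries were below both wildtype libraries, an order that the ranking favours in the same way. The share of all genes with this order was not counted.

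The groups overlapped in the other genes of this rank. Inpp4b (chr8:81342266-82134312), a phosphoinositide phosphatase, had 80 and 137 regions in wildtype and 61 and 103 in the knockout. Macrod2 (chr2:140395303-142392966) had 82 and 231 and then 110 and 193, with 8 knockout-only beside 13 wildtype-only sites.

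**Figure D2:**
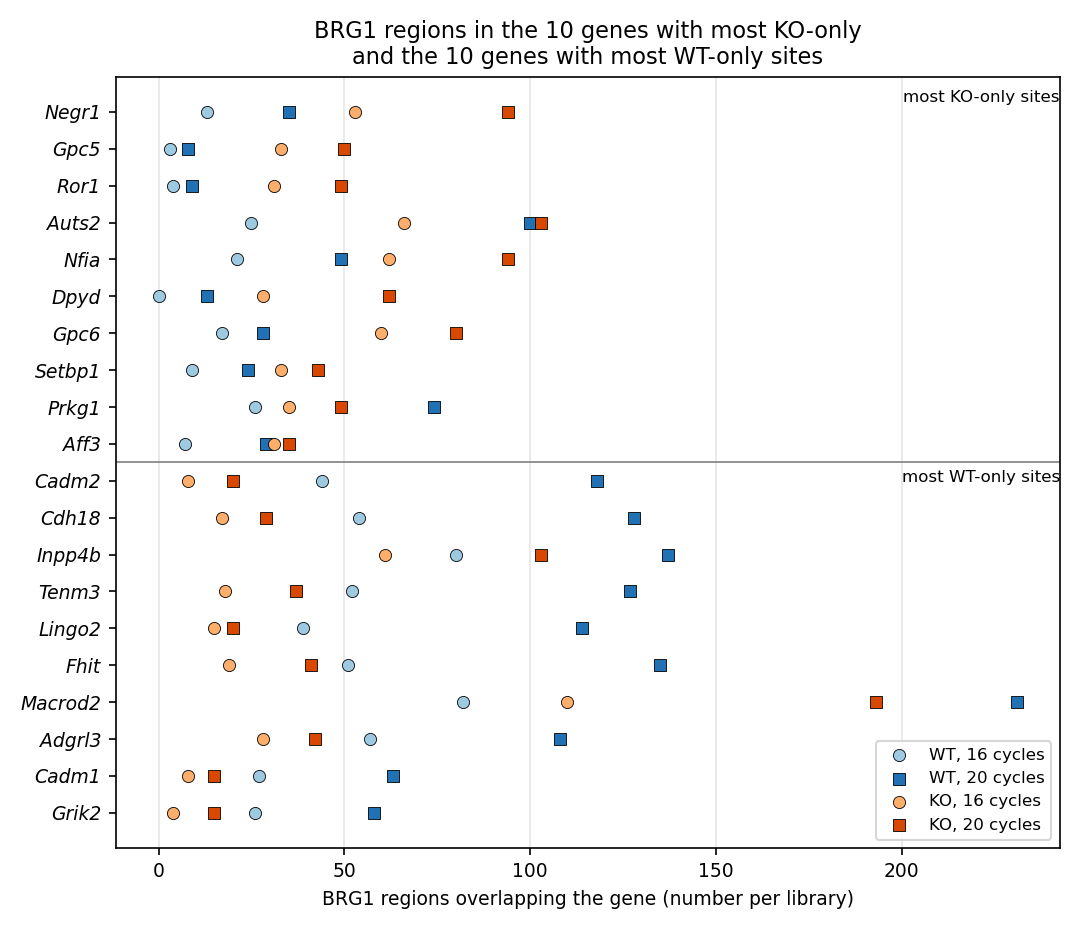
Number of BRG1 regions in each of the 4 libraries for the 10 genes with the most knockout-only sites and the 10 genes with the most wildtype-only sites. In Negr1, Gpc5 and Ror1 both knockout libraries lie above both wildtype libraries, and in Cadm2, Cdh18 and Grik2 both lie below. The ranking by sites of the same lists favours these orders.

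In a list of 28 long neuronal genes, 13 had a smaller share of the gene body under BRG1 regions in the knockout at both lengths, 3 had a larger one, and the other members had no shared direction. Over all 16853 genes of at least 5 kb, 4358 had a larger share of the gene body under BRG1 regions in the knockout at both lengths (25.9%) and 1274 a smaller one (7.56%). The 3 and 13 long neuronal genes are 10.7% and 46.4% of the list, and its members held 38 knockout-only and 104 wildtype-only sites, against 4327 and 2213 over all genes. Their median difference in coverage, knockout minus wildtype, was 0.04 and -0.44 points, against 1.28 and -0.45 over all genes. Beyond Cadm2, the phosphatase Ptprd went from 32 and 107 regions to 20 and 28, the X-linked gene Il1rapl1 from 35 and 54 to 8 and 11, and the neuregulin receptor Erbb4 from 7 and 26 to 0 and 2. The list did not move as one: the adhesion gene Opcml went from 39 and 106 to 69 and 95 and held 8 knockout-only sites and 1 wildtype-only site, and the ion channel gene Asic2 held 5 and 0.

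Sites were also ranked by width. The widest knockout-only sites were in Myo5b, an unconventional myosin of vesicle transport (chr18:74504691-74506589; 1569 and 1676 bp in the knockout), and in Gpc5 (chr14:115803901-115805892; 1992 and 1505 bp). Of the other 8, which include a site 584 kb from Rwdd3, some lay in the serpin gene Serpina3n (chr12:104413364-104414885; 1442 and 1522 bp) and in Ror1 (chr4:100187663-100189062; 1400 and 1386 bp). The widest wildtype-only site lay 787 kb from the nearest gene, Tmprss15 (chr16:79877835-79879972; 1954 and 1847 bp in wildtype). The second lay in Rims1, an organiser of presynaptic release (chr1:22421541-22423128; 1588 and 1458 bp), and the next lay 527 kb from Nudt12 and 85.8 kb from Jade1. Further sites lay 611 kb from Slitrk2, in the adhesion gene Lsamp (chr16:40865628-40867237; 1218 and 1610 bp) and in Pdgfd, a platelet-derived growth factor (chr9:6269340-6270629; 1180 and 1290 bp). Of the 10 widest knockout-only sites 8 carried CHD4 at 16 cycles in the knockout and 0 in wildtype, and of the 10 widest wildtype-only sites 9 carried it in wildtype and 0 in the knockout.

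CHD4 at 16 cycles had the same order as BRG1 over the full classes. At knockout-only BRG1 sites 4.84% carried a CHD4 region in wildtype and 41.6% in the knockout, an 8.60-fold difference where the CHD4 list as a whole was 1.80 times as long in the knockout. At wildtype-only sites the order was the reverse, 24.0% in wildtype and 7.91% in the knockout. At sites in all 4 lists CHD4 was found at 60.6% and 84.3%. Sites in all lists but wildtype at 16 cycles, which do have BRG1 in wildtype, went from 5.98% to 63.9%, a 10.7-fold difference, so that the larger share of CHD4 in the knockout is not particular to knockout-only sites. Wildtype CHD4 at 20 cycles was at 16.9% of knockout-only and 27.3% of wildtype-only sites. When each class was cut by width into 4 groups of equal number, 69.9% of the widest knockout-only sites carried CHD4 in the knockout, against 21.4% of the narrowest, and 45.0% of the widest wildtype-only sites carried it in wildtype. At 20 cycles the CHD4 list of the knockout held only 7283 regions and covered 0.796% of knockout-only, 0.45% of wildtype-only and 6.56% of shared sites, so the comparison could not be repeated there.

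Lamin A/C regions were more frequent in the knockout at sites of either class at 16 cycles, and at 20 cycles the difference in percentage points was largest at the wildtype-only sites. With antibody 3A6 they were at 4.88% of wildtype-only sites in wildtype and 15.9% in the knockout at 16 cycles, and at 4.50% and 16.0% at 20 cycles. At knockout-only sites the values were 3.22% and 16.3%, then 7.05% and 10.3%, and at sites in all 4 lists 1.88% and 17.5%, then 1.08% and 7.48%. As a ratio the difference at 20 cycles was larger at sites in all 4 lists (6.96-fold) than at wildtype-only sites (3.57-fold). With antibody E1 wildtype-only sites went from 0.83% to 3.69% and from 1.32% to 6.47%, knockout-only sites from 0.68% to 2.74% and from 3.08% to 2.82%, and shared sites from 1.10% to 5.44% and from 0.43% to 0.98%. The lamin lists themselves were longer in the knockout, by 2.19-fold and 1.24-fold (3A6) and 2.46-fold and 1.62-fold (E1). In wildtype cells Lap2alpha regions were at 12.8% and 9.90% of wildtype-only sites, at 4.26% and 7.15% of knockout-only sites and at 12.5% and 14.4% of shared sites. The part that list length plays in these shares was not tested.

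**Figure D3:**
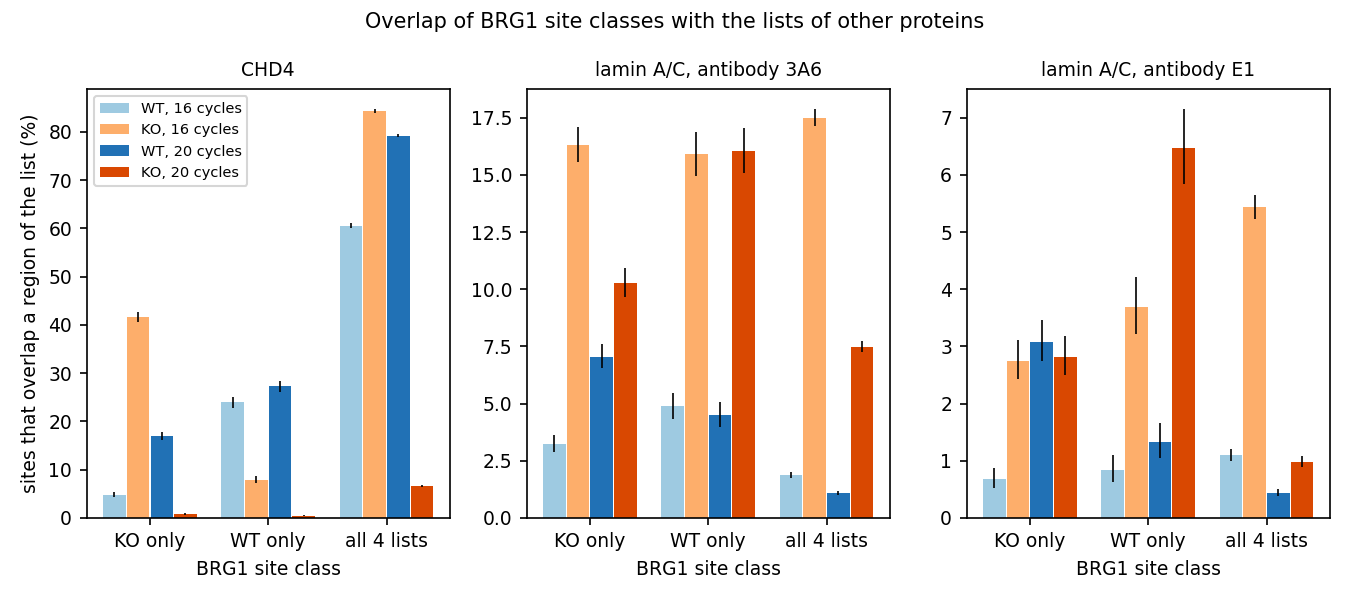
Percentage of knockout-only, wildtype-only and shared BRG1 sites that overlap a region of another list, with 95% Wilson intervals as error bars; the panels have different y scales. CHD4 at 16 cycles goes from 4.84% in wildtype to 41.6% in the knockout at knockout-only sites and from 24.0% to 7.91% at wildtype-only sites.

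Over whole domains the contrast with lamin A/C was plainest where BRG1 was lower in the knockout. Windows of 100 kb with at least 5 sites of one class and none of the other, a rule chosen after the data were seen, gave 60 knockout windows and 73 wildtype windows, of which 16 and 46 held no protein-coding gene. The mean number of BRG1 regions in wildtype windows was 10.2 and 18.4 in wildtype and 2.42 and 4.44 in the knockout. This BRG1 difference follows from the choice of windows. The mean number of lamin A/C regions was 1.92 and 1.36 and then 8.29 and 12.0 (3A6), or 0.849 and 0.630 and then 7.05 and 12.6 (E1). Lamin regions were more numerous in the knockout in 65 and 70 of the 73 windows (3A6), which is 89.0% and 95.9%, and in 67 and 68 (E1), which is 91.8% and 93.2%. Among all 18181 windows with at least 5 sites the shares were 86.3% and 76.6% (3A6) and 55.7% and 43.9% (E1). With E1, 7145 and 9161 of all windows had equal numbers in both genotypes, which lowers their share. More regions in the knockout were found in 10128 and 7983 windows, and fewer in 908 and 1037. Of the 73 windows, 4 and 5 were equal and 2 and 0 had fewer.

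In knockout windows BRG1 went from 3.22 and 8.75 regions to 13.1 and 19.2, which follows from the choice of windows in the same way. Lamin regions were more numerous in the knockout in 50 and 36 of these 60 windows (3A6; 83.3% and 60%) and in 33 and 15 (E1; 55% and 25%), so that at 20 cycles the shares lay below those of all windows. With antibody E1, 23 and 33 of the 60 had equal numbers and 4 and 12 had fewer in the knockout. CHD4 at 16 cycles was higher in the knockout in 58 of the 60 knockout windows and lower in 71 of the 73 wildtype windows. Of all 18181 windows it was higher in 11674 (64.2%), lower in 3090 and equal in 3417. The windows were picked by BRG1 and not by the lamin or CHD4 lists, but all lists come from the same cell populations.

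**Figure D4:**
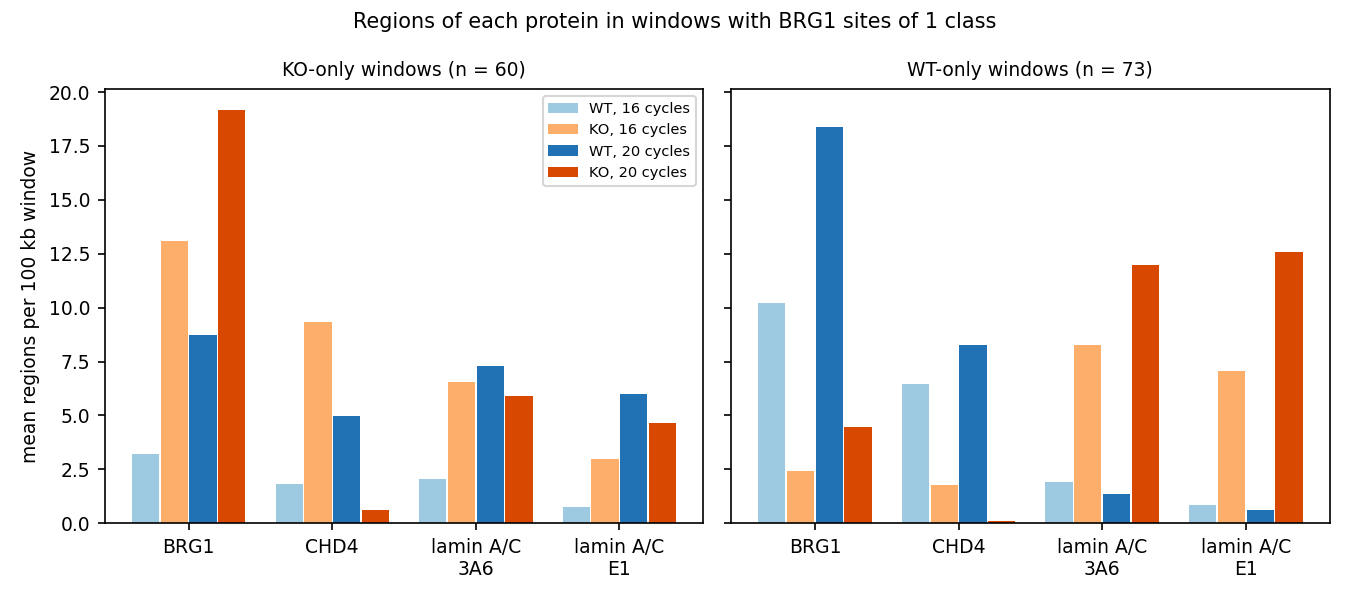
Mean number of regions per 100 kb window in the 60 windows with at least 5 knockout-only BRG1 sites and in the 73 windows with at least 5 wildtype-only sites, for BRG1, CHD4 and lamin A/C in each library. The windows were chosen by BRG1 sites, so that their BRG1 difference follows from the choice. In the wildtype windows BRG1 has 10.2 and 18.4 regions in wildtype and 2.42 and 4.44 in the knockout. Regions of both lamin antibodies are more numerous in the knockout there.

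The knockout windows with most sites, 9 each, were chr6:112200001-112300000 at Lmcd1, a LIM-domain cofactor of muscle and stromal cells, and chr18:69100001-69200000, which holds no gene. Lmcd1 itself (chr6:112273758-112330423) held 0 and 1 BRG1 regions in wildtype and 5 and 10 in the knockout. Windows in Setbp1, at Adamtsl2 (chr2:27100001-27200000, 7 sites) and at Ppfibp2 (chr7:107700001-107800000, 7 sites) followed. The wildtype window with most sites, chr1:11900001-12000000, held no gene and 11 wildtype-only sites, with 13 and 24 BRG1 regions in wildtype and 0 and 1 in the knockout. The window of the carbonic anhydrase genes Car1, Car3 and Car2 (chr3:14800001-14900000) held 8 and went from 13 and 17 BRG1 regions to 2 and 3, while lamin A/C regions of antibody E1 went from 1 and 0 to 7 and 25. In Cdh11 (chr8:102632095-102785493) the order was the opposite, with 0 and 1 BRG1 regions in wildtype and 5 and 10 in the knockout, and 45 and 75 lamin regions of antibody E1 in wildtype and 9 and 14 in the knockout.

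In the 10 genes with the most wildtype-only sites, lamin A/C regions were mostly more numerous in the knockout: in 7 and 8 of the 10 with antibody 3A6 and in 10 and 10 with antibody E1. The share over all genes was not counted. Among 1 Mb bins with neither a higher nor a lower BRG1 share, 3A6 regions were more numerous in the knockout in 90.9% and 86.1%. With antibody E1 the shares were 91.5% and 73.3%. The counts with 3A6 are therefore not particular to these genes. In Cadm2 antibody 3A6 gave 1 and 2 regions in wildtype and 77 and 65 in the knockout, and in Cdh18 it gave 5 and 0 and then 72 and 150. Grik2 went from 2 and 0 to 38 and 55 with antibody 3A6 and from 0 and 0 to 27 and 37 with antibody E1. Tenm3 was an exception, with 149 and 293 regions of antibody 3A6 in wildtype and 41 and 267 in the knockout. In the 10 genes with the most knockout-only sites lamin regions were more numerous in the knockout in 7 and 3 (3A6) and in 9 and 4 (E1). Gpc5 was among them, from 3 and 10 to 144 and 161 (3A6), so that more BRG1 and more lamin regions were listed in the same gene.

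CHD4 at 16 cycles was lower in the knockout in all 10 genes with the most wildtype-only sites and higher in 9 of the 10 with the most knockout-only sites, all but Prkg1. It went from 19 regions to 3 in Cadm2, from 34 to 7 in Cdh18 and from 57 to 8 in Fhit, and from 0 to 16 in Gpc5, from 9 to 45 in Nfia and from 5 to 42 in Gpc6. The share over all genes was not counted. Among the 1731 bins with neither a higher nor a lower BRG1 share, CHD4 at 16 cycles was more numerous in the knockout in 1522 (87.9%) and less numerous in 191. The count of 9 is therefore not particular to the genes with knockout-only sites. The genes with wildtype-only sites had the reverse of the order in most of these bins.

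Over 1 Mb bins the contrast with lamin was not general. In the 146 bins with a lower BRG1 share, lamin regions were more numerous in the knockout in 79.5% and 82.2% of bins with antibody 3A6 and in 87.7% and 87.7% with antibody E1. In the 1731 bins that were neither higher nor lower the shares were 90.9% and 86.1% (3A6) and 91.5% and 73.3% (E1). Only antibody E1 at 20 cycles had a larger share in the lower bins, and bins with equal numbers weigh on it. With it 1268 of the 1731 bins had more in the knockout, 119 fewer and 344 equal numbers, against 128, 17 and 1 of the lower bins. CHD4 at 16 cycles had 0.538 times as many regions in the knockout in the lower bins, 1.93 times as many in the bins that were neither, and 3.96 times as many in the higher bins. It was more numerous in the knockout in all 87 higher bins, and in 1522 of the 1731 bins that were neither (87.9%). The lower bins held 8.92% and 6.52% of the covered length of Lap2alpha in wildtype, and the higher bins 1.65% and 2.60%. By number the lower bins were 7.43% and the higher bins 4.43% of the bins compared.

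BRG1 coverage of gene bodies was far more often higher than lower in the knockout when a difference of at least 5 percentage points of the gene's length was asked for at both lengths. Of the 16853 genes, 376 had that much more coverage in the knockout (2.23%) and 42 that much less (0.249%). At 20 cycles alone the order turned, with 639 genes more and 1768 less, while at 16 cycles alone, against the short wildtype list, it was 3155 and 84. The median gene had 0.821% and 4.62% of its length under BRG1 regions in wildtype and 3.23% and 3.69% in the knockout, and 7425 genes differed with opposite signs at the 2 lengths. A direction shared at both lengths was less common than an opposite one.

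The gene with the largest gain was Eif6, a factor of ribosome assembly (chr2:155819837-155826925), from 13.1% and 25.2% to 33.7% and 48.7% of its length. The cell cycle inhibitor Cdkn1b (p27; chr6:134920401-134925525) went from 0% and 28.9% to 21.2% and 48.5%, the GTPase gene Diras1 from 0% and 26.2% to 26.3% and 44.6%, and Itpripl2 from 3.29% and 44.1% to 48.5% and 61.7%. Several of these were at 0 in the wildtype library at 16 cycles and well covered at 20 cycles. Vat1 went from 0% and 14.9% to 15.9% and 34.5%, and the leukocyte membrane gene Evi2b from 2.20% and 7.65% to 21.5% and 23.0%.

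Of the genes with less coverage in the knockout, Car2 (chr3:14886269-14900770), which encodes cytosolic carbonic anhydrase, went from 19.9% and 26.0% to 2.54% and 2.52%. Esm1 (chr13:113209659-113218104), the secreted proteoglycan endocan, went from 23.3% and 25.5% to 4.91% and 10.3%. Both knockout values were below both wildtype values in each gene. The antiproliferative gene Btg1 went from 43.3% and 37.6% to 26.3% and 22.8%, the calcium-binding protein gene S100a11 from 46.2% and 39.9% to 34.2% and 25.8%, and the RNA sensor gene Tlr7 from 24.7% and 20.9% to 10.7% and 7.91%. Defb33, a beta-defensin, went from 14.3% and 26.1% to 0% and 0%, and Cyp3a13 from 10.6% and 12.6% to 1.76% and 0.606%.

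At gene ends, 232 genes had a BRG1 region within 1 kb in both knockout lists and neither wildtype list (1.06% of 21887 genes) and 82 the reverse (0.375%). At 20 cycles alone the order turned (1070 knockout-only and 1986 wildtype-only), and the counts were 162 and 103 when lists were cut to equal length by width. All 4 lists had a region at 7427 genes, all but the wildtype list at 16 cycles at 3448, and none at 6707. Counted at annotated starts alone, for the 17492 genes with an entry, 130 were knockout-only (0.743%) and 49 wildtype-only (0.28%). Which genes these are depends on the window: 124 of the 232 and 56 of the 82 also passed with 500 bp, and 116 and 56 with 2 kb. CHD4 at 16 cycles was at 2.59% of knockout-only gene ends in wildtype and 46.6% in the knockout, and at 35.4% and 13.4% of wildtype-only gene ends. Gene ends in all lists but wildtype at 16 cycles went from 5.92% to 80.1% in the same libraries, and wildtype CHD4 at 20 cycles was already at 33.2% of the knockout-only gene ends.

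By width, the knockout-only gene ends were led by Cdh11 (3424 and 2277 bp), Ankrd13b (1906 and 2180 bp), Zbed3 (1891 and 2512 bp) and the calcium-binding protein gene S100a3 (2052 and 1832 bp). Of the 10 genes named by this rule only Cdh11 and Syn3, which encodes synapsin III, also passed with 500 bp, and only Syn3 (1062 and 1122 bp) with 2 kb. Zbed3, S100a3, Zfp821 and Fam13c also had regions of all 4 lists at their annotated starts. A steadier set, chosen after its values were seen, is that of the 76 genes that passed at all 3 window sizes. It included the laminin chain gene Lama4 (chr10:38965515-39110188; 988 and 852 bp), the apoptotic protease gene Casp6 (812 and 852 bp), the protease inhibitor gene Serpine2 (1240 and 430 bp), Lmcd1 (732 and 458 bp) and the basal keratin gene Krt14 (436 and 430 bp).

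Wildtype-only gene ends held up better. Of the 10 named, 8 passed with 500 bp and 7 with 2 kb, and 45 of the 82 passed at all 3 sizes. They included Sulf1 (chr1:12692197-12861192; 1074 and 2252 bp in wildtype), Mreg (1032 and 1374 bp), Bmp3, a bone morphogenetic protein (852 and 884 bp), Cdh18 (726 and 632 bp) and the protease gene Gzmb of cytotoxic cells (538 and 542 bp). Tmeff1 and Cavin4 share 1 region (742 and 753 bp). Sulf1 was lower along its whole length too, with 9 and 27 regions in wildtype and 3 and 1 in the knockout.

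Genes that mark a fibroblast had BRG1 at their ends in both genotypes. Of 33 fibroblast and matrix genes 27 had an end region in all 4 lists (81.8%, beside 33.9% of all genes). None was knockout-only or wildtype-only, beside 1.06% and 0.375% of all genes. Of the 30 long enough for coverage, 4 had at least 5 points more coverage in the knockout at both lengths (13.3%, beside 2.23% of all genes). None had 5 points less. Col1a2, a chain of type I collagen, went from 16.8% and 22.9% to 28.1% and 34.1%. However, Col1a2 held 2 knockout-only and 2 wildtype-only sites, and a promoter window of it was wildtype-only. The lysyl oxidase relative Loxl1 went from 16.4% and 25.5% to 33.2% and 32.1%, and the gelatinase Mmp2 from 17.4% and 26.3% to 23.2% and 33.6%. The receptor gene Pdgfrb gained 9.51 and 5.38 points. Some other members went opposite ways at the 2 lengths. Col1a1, the partner chain of Col1a2, differed by 7.94 and -16.0 points, and the receptor gene Pdgfra by 6.56 and -6.76 points. At any size 43.3% of the 30 genes had more coverage at both lengths and 6.67% less, beside the 25.9% and 7.56% of all genes. Their median differences were 4.75 and -0.83 points, beside 1.28 and -0.45 over all genes. Of 20 contractile and YAP target genes 2 had more by the same rule (10%, beside 2.23% of all genes) and none less. They were Tagln (0% and 8.88%, then 9.17% and 26.1%) and the receptor kinase gene Axl (5.92% and 12.3%, then 13.3% and 18.7%). At any size 8 of the 20 had more and 0 less (40% and 0%, beside 25.9% and 7.56% of all genes). The median differences were 5.16 and -1.65 points.

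In the lists of growth control and signalling genes single members passed. By the rule of 5 points at both lengths, 7.14% of the retinoblastoma, E2F and cell cycle genes had more coverage. The share was 10.3% of the TGF-beta and BMP genes and 14.3% of the AP-1 and immediate early genes, beside 2.23% of all genes. These shares rest on 3, 3 and 2 genes. At any size the shares with more coverage (21.4% to 27.6%) lay near the 25.9% of all genes. Of 42 retinoblastoma, E2F and cell cycle genes, which Lap2alpha is known to influence through the retinoblastoma protein, Cdkn1b, the p53 target Cdkn1a and the ribonucleotide reductase subunit gene Rrm2 had more coverage and none less, with 26.2% and 9.52% at any size and median differences of 2.01 and -1.30 points. Of 29 TGF-beta and BMP genes 3 had more, among them the procollagen protease gene Bmp1 and the inhibitory SMAD gene Smad7, beside the 2.23% of all genes that passed, and 27.6% and 0% at any size. In the same list Bmpr1b, a BMP receptor, had a knockout-only end and Inhba, the activin A subunit, a wildtype-only end, although all 4 lists had regions at its annotated starts. A promoter window of Inhba was knockout-only, the opposite direction. Of 14 AP-1 and immediate early genes with coverage Klf6 and Klf10 had more, and the median differences of that list were 15.97 and -6.41 points, of opposite sign at the 2 lengths.

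Few genes of the remodellers and of the nuclear envelope passed a rule at both lengths together, as over all genes (1.06% with a knockout-only end, 2.23% with 5 points more coverage). Among 30 SWI/SNF subunit genes Bcl11a had a knockout-only end and Smarcd1 more coverage in its body, and at any size 36.7% had more and 10.0% less, beside 25.9% and 7.56% of all genes. Of 15 NuRD subunit genes none passed either rule, with 13.3% and 0% at any size. Of 23 nuclear envelope genes Syne3, a nesprin, had a knockout-only end, and 23.8% and 0% of the 21 with coverage had more and less at any size.

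Markers of other cell types passed in small numbers on the knockout side, the side to which all genes lean as well (1.06% against 0.375% of ends): Krt14 among 17 keratinocyte genes, Cdh5 among 11 endothelial genes and Myf5 among 18 muscle, adipocyte and melanocyte genes had knockout-only ends, and the body of Csf1r had more coverage among 11 leukocyte genes with coverage. At any size 2 of the 13 keratinocyte genes with coverage had more and 3 less (15.4% and 23.1%), which gives no clear direction. The keratinocyte list held 3 knockout-only and 0 wildtype-only sites. Of 424 zinc finger genes 6 had knockout-only and 1 wildtype-only ends (1.42% and 0.236%, near the shares of all genes), and of 1106 olfactory receptor genes 1 and 3 had them. Whether other cells were present in the cultures was not tested.

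The ratio of knockout-only to wildtype-only sites was highest on chromosome 18 and lowest on X, followed by chromosome 19. Chromosomes 5 and 8 also held more wildtype-only than knockout-only sites (ratios of 0.942 and 0.975). The wildtype-only share of sites on chromosome 19 (2.35%) was close to that on chromosome 16 (2.36%). On chromosome 18 there were 470 knockout-only and 81 wildtype-only sites, a ratio of 5.80, on chromosome 19 there were 158 and 232 (0.681), and on X 139 and 308 (0.451). The share of all BRG1 regions that lay on chromosome 18 was 3.18% and 3.05% in wildtype and 3.78% and 4.09% in the knockout, and that on chromosome 19 was 3.14% and 3.60% in wildtype and 2.75% and 2.68% in the knockout. On X the BRG1 shares were 4.09% and 2.87% in wildtype and 2.46% and 2.67% in the knockout. Lists of other proteins moved with BRG1 on chromosome 18 but not throughout on X: CHD4 on chromosome 18 went from 2.49% and 2.38% to 3.64% and 3.72%, and lamin A/C with antibody 3A6 from 1.53% to 3.67% at 16 cycles, whereas CHD4 on X went from 8.93% to 2.58% at 16 cycles and from 3.26% to 3.71% at 20 cycles. A difference in the number of copies of these chromosomes between the cell populations cannot be told apart from a change in binding in lists of intervals. Without these 3 chromosomes there were 8022 knockout-only and 4914 wildtype-only sites, and 78 bins with a higher and 129 with a lower share.

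**Figure D5:**
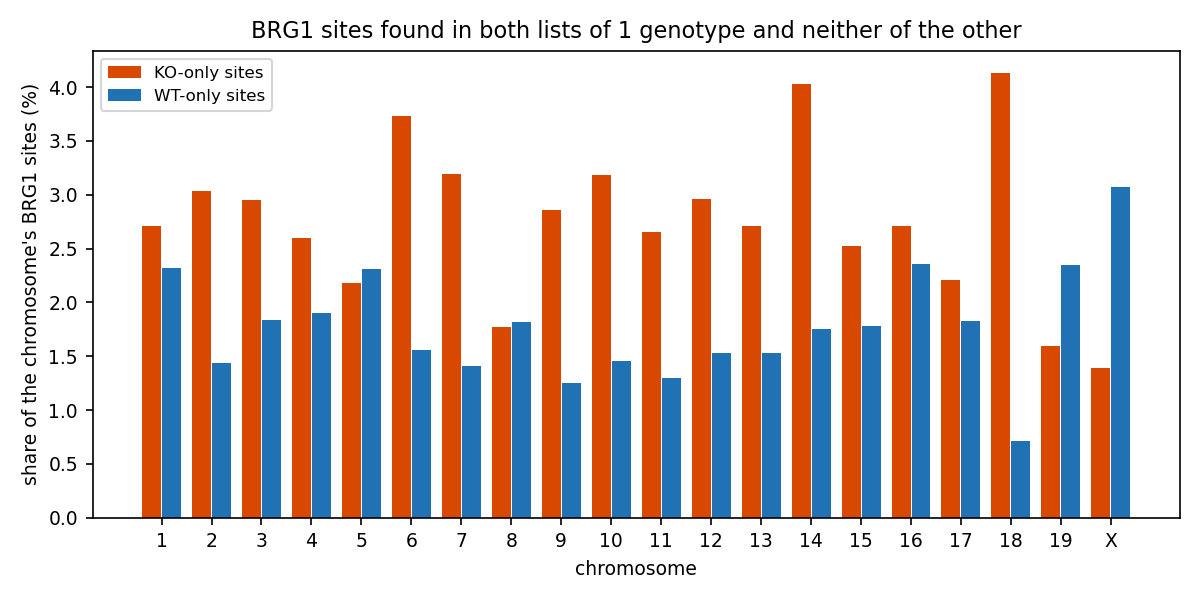
Number of knockout-only and wildtype-only BRG1 sites on each chromosome as a percentage of all sites there. Chromosome 18 has 4.13% knockout-only and 0.712% wildtype-only sites, while X has 1.39% and 3.08%.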

How the data were processed

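The authors deposited 1 list of enriched regions per library, each with 3 columns (chromosome, start, end) on GRCm38, without scores, counts or read totals. The submitters' processing notes name MACS2 2.1.4 and HOMER 4.11.1 beside bedtools, deepTools and SAMtools; which of them called the regions and with which settings is not given in the sources used here.

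Zero-width intervals were dropped (17, 127, 37 and 365 in the BRG1 lists of wildtype at 16 and 20 cycles and of the knockout at 16 and 20 cycles), no BRG1 interval lay on the mitochondrial genome, and overlapping intervals were merged into regions. Regions of the 4 BRG1 lists that overlap by 1 bp were joined into sites. Genes are the 21887 protein-coding genes of RefSeq GRCm38.p6; since 17492 have a strand in the tables used, both gene ends were searched, 1 kb to each side. Coverage is the percentage of a gene of at least 5 kb, and the share of a 1 Mb bin is taken of all covered bases. Scripts ran in Python 3.11.15 with numpy 2.4.6, pandas 2.3.3, scipy 1.17.1 and matplotlib 3.10.9, and recovered 95 of 95 answers on simulated data. No test was run, since each group is a single library, and Wilson intervals (95%) cover counting error only.

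Genes and regions are named by rank: the 10 widest sites and gene ends of each class by the smaller of the 2 widths, the 10 genes with the most sites of a class, the 10 largest coverage differences each way, and up to 4 members that passed in each list; some members are not reported here. The libraries, gene lists and rules were chosen with earlier results of these data known. Alternatives covered equal list lengths, a smallest width, merging distance, overlap, gene-end window, thresholds, bin size and single libraries or sonication lengths.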

Additional observations from a re-analysis of the deposited data

Results flagged for a closer look

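The number of BRG1 regions moved in opposite directions at the 2 sonication lengths: the log2 ratio of knockout to wildtype was 0.571 at 16 cycles and -0.23 at 20 cycles. The covered length did the same, at 1.7 times and 0.862 times the wildtype value. In 7425 genes of at least 5 kb the coverage difference had opposite signs at the 2 lengths, and 346 gene ends were listed only in the knockout at 16 cycles and only in wildtype at 20 cycles. With 1 library each, the difference between the sonication lengths was not tested.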

How the results depend on the processing

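The depth of the libraries is unknown, each group is 1 library, and a missing region can be a region just under the caller's threshold. No paired analysis was possible because each group has a single replicate number and no result comes from a test; knockout and wildtype were compared within each sonication length throughout. Leaving out libraries, leaving out chromosomes, counting unmerged intervals and counting annotated starts were alternatives chosen after seeing the data.

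The ratio of knockout to wildtype regions was 1 at both lengths by construction with equal numbers of the widest regions, 1.47 and 0.843 with regions closer than 500 bp merged, and 1.14 at 20 cycles with intervals as listed, which reverses it. Wildtype regions kept in the knockout were 78.3% and 42.7% with regions of at least 200 bp, 66.9% and 44.3% with equal numbers, 72.7% and 32.9% with 50% of the region covered, and 76.6% at 16 cycles with merging at 500 bp.

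Knockout-only sites numbered 5269 with equal numbers, 52964 at 16 cycles alone and 92165 at 20 cycles alone, and 11534 to 87384 without 1 of the lists. Wildtype-only sites numbered 17217 and 123487 at the single lengths and 8320 to 108350 without 1 list. Knockout-only gene ends numbered 4263 and 1070 at the single lengths, 130 at annotated starts and 286 to 3680 without 1 list, and wildtype-only gene ends 291, 1986, 49 and 140 to 1500. By library, knockout-only and wildtype-only gene ends were 286 and 1500 without wildtype at 16 cycles, 3680 and 140 without wildtype at 20 cycles, 987 and 222 without the knockout at 16 cycles, and 469 and 204 without the knockout at 20 cycles. These rises follow from asking for fewer lists.

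Gene bodies with more coverage numbered 50 at 10 points, 4358 at any size, and 3155 and 639 at the single lengths. Those with less numbered 8, 1274, 84 and 1768, and 64 with equal numbers. Bins with a higher and a lower share numbered 203 and 327 at 500 kb, and 33 and 84 at 2-fold. The gene-end share at 20 cycles, knockout minus wildtype, was 0.621 points with 500 bp windows. Within 100 bp of site centres, lamin A/C of antibody E1 differed by 1.30 points at knockout-only sites and 1.72 points at wildtype-only sites at 16 cycles, and by 3.32 points at wildtype-only sites at 20 cycles. The cause of these shifts was not tested.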
